A study of Homo sapiens with 12 samples.

Results

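The cells described here are mesoderm cells sorted for the apelin receptor (APLNR+) on day 2 of blood differentiation from H1, a human embryonic stem cell line in wide use. Their 3 RNA-seq libraries were set against the other 9 libraries of the same series, from undifferentiated H1 cells, CD31+CD34+ hemogenic endothelial progenitors (day 5) and CD43+ hematopoietic progenitors (day 8), with 3 libraries each. A gene was described as higher where its lowest APLNR+ library lay above the highest of the other 9, and as lower where its highest APLNR+ library lay below the lowest of the other 9. Of 14840 genes that reached 1 FPKM in at least 3 libraries, 1457 were higher (9.82%) and 1634 were lower (11%). FPKM divides fragment counts by the length of the transcript and by the library total, and comparisons were made on log2(FPKM + 1), which understates changes of low genes. All sorted populations came from the same culture protocol, in Custom mTeSR1 medium with activin A and BMP4 up to day 2 and with VEGF and bFGF afterwards, so APLNR+ cells had met only the former pair of factors. The model is a single cell line in culture, and the labels do not say whether libraries of a group came from separate cultures. The p-values therefore measure the spread between these libraries, which may be technical.

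Mesoderm arises in the embryo when epiblast cells pass through the primitive streak, where Nodal, BMP, Wnt and FGF signals switch on T-box and homeobox factors and the cells lose their epithelial contacts. The streak and its organizer also secrete proteins that bind these same ligands and limit their range. Cells leaving the streak early form lateral plate and extraembryonic mesoderm, the source of heart, vessels and the earliest blood, and the apelin receptor marks many of them.

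The sorted cells carried the 3 genes used to mark them, CER1, MESP1 and BMP2, which had been picked with earlier results of these libraries known. CER1, which encodes a secreted antagonist of Nodal, BMP and Wnt, stood at 2167, 2301 and 2245 FPKM in APLNR+ cells and at 0.0806 to 2.4 (median 1.56) FPKM in the other 9 libraries. MESP1, a basic helix-loop-helix factor of the earliest cardiovascular mesoderm, stood at 32.3, 21.8 and 24.6 FPKM against 0.00935 to 1.4 (median 0.482). BMP2, a BMP ligand, stood at 70.2, 71.5 and 72.1 FPKM against 0.404 to 3.77 (median 0.698). For all 3 genes every APLNR+ library was far above every other library, and the nearest population was CD31+CD34+. The limma differences from that population were 9.64 ± 0.22 (SE, adjusted p = 1.33e-11) for CER1, 3.70 ± 0.15 (SE, adjusted p = 9.45e-10) for MESP1 and 3.96 ± 0.08 (SE, adjusted p = 7.16e-12) for BMP2. APLNR itself was not among the 1457, because 388, 402 and 359 FPKM in APLNR+ cells overlapped 381, 429 and 398 FPKM in CD31+CD34+ cells, although H1 held only 0.688, 0.386 and 0.509 FPKM. CD43+ cells held 21.7, 26.2 and 23.2 FPKM of APLNR. The markers of the other sorts were low or absent here, with PECAM1 (CD31) at 0.0997 ± 0.0853 FPKM, CD34 at 0.981 ± 0.125 and SPN (CD43) at 0.184 ± 0.0285. In these bulk samples fewer cells of a type and less RNA per cell cannot be told apart.

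The libraries differed in depth and in makeup, which touches the counts below. Relative depth, read from the spacing of the lowest values, ran from 0.555 to 1.275 times that of CD43+ replicate 3, and the APLNR+ libraries lay at 0.753, 1.16 and 1.22. Small RNA entries took 10.5% to 66.2% of the summed FPKM, with 27.6% in APLNR+ replicate 1 and 66.2% and 61.3% in replicates 2 and 3. Without APLNR+ replicate 1, 1763 genes were higher and 1979 lower. Protein-coding genes summed to between 355624 and 376722 FPKM in the APLNR+ libraries and to between 421854 and 501140 FPKM in the other 9. After scaling each library to that sum, 2393 genes were higher and only 766 lower, and the median gene stood at 0.19 instead of -0.03 on the log2 scale relative to the mean of the other 3 populations. Every APLNR+ library had a smaller protein-coding sum than every other library, so this scaling raised all APLNR+ values against the rest. It could therefore add higher genes and remove lower ones but not the reverse.

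The gap between the groups was much wider among the higher genes. It is the distance on the log2(FPKM + 1) scale between the nearest libraries of the groups, and its median was 0.38 for higher and 0.20 for lower genes. The gap was at least 2-fold in 284 higher genes (19.5%) and in 35 lower genes (2.14%), and it was at least 4-fold in 70 and 3. Of the higher genes, 213 were under 1 FPKM in all 9 other libraries. Those genes passed the filter only through the APLNR+ libraries, so they had to differ. Only GSC and the noncoding AL513329.1 were also at 10 FPKM or more in every APLNR+ library.

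**Figure D1:**
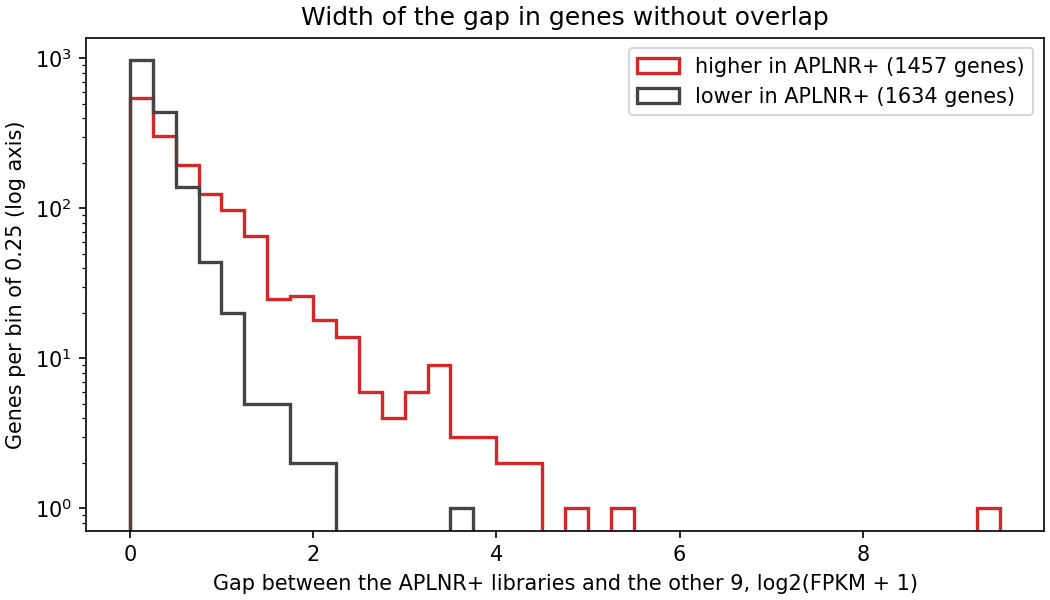
Histogram of the gap (horizontal axis, log2(FPKM + 1)) in 1457 genes higher and 1634 genes lower in APLNR+ cells, with genes per bin on a log vertical axis. The curve of the lower genes ends at 2.17 (WSCD1) except for RASGRP2 at 3.57, while the higher genes reach 9.32 at CER1.

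Fitting all 14840 genes with limma gave a view that depends on the spread and not on the extreme library. A gene was called where the adjusted p was under 0.05 and the difference at least 2-fold. Against each of the 3 other populations at once, 446 genes were called higher (3.01%) and 85 lower (0.573%). Against the mean of the 3 other populations, 1428 were called higher (9.62%) and 1013 lower (6.83%). The genes described were chosen on the same values, so their p-values set the size of a difference against the spread and are no independent evidence. Of the 446, 441 belonged to the 1457 without overlap, and all 85 belonged to the 1634. The population nearest to APLNR+ was H1 for 702 of the higher genes, CD31+CD34+ for 620 and CD43+ for 135. For the lower genes it was H1 for 1043, CD31+CD34+ for 387 and CD43+ for 204.

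**Figure D2:**
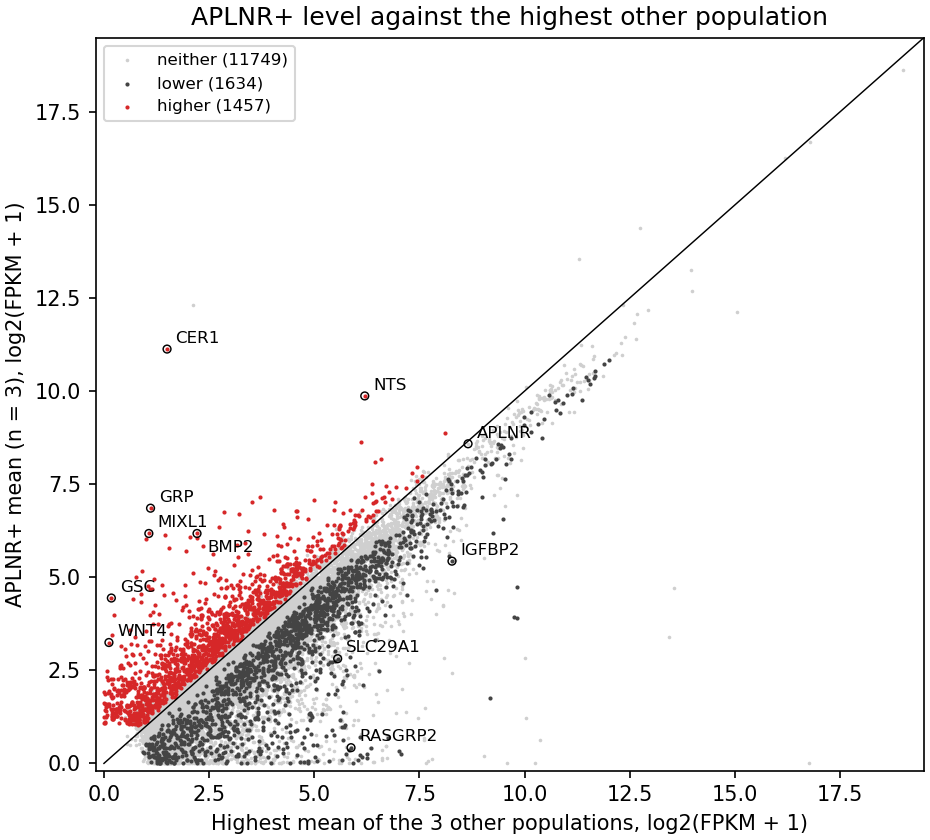
Mean level in APLNR+ cells (vertical axis) against the highest mean of the 3 other populations (horizontal axis), both in log2(FPKM + 1), 1 point per tested gene. The 1457 higher genes lie above the diagonal with CER1 farthest from it among them, the 1634 lower genes lie below it, and APLNR lies on it.

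The 15 protein-coding genes with the widest gap above the other libraries, among those with at least 10 FPKM in every APLNR+ library, were CER1, GRP, MFAP4, MIXL1, CNKSR3, LZTS1, ATP12A, GSC, BMP2, FST, DKK1, WNT5A, C1orf61, NTS and CYP26A1. They held 4 secreted signals or peptides and 3 antagonists. GRP, which encodes gastrin-releasing peptide, was at 107, 121 and 116 FPKM in APLNR+ cells and at 0 to 1.58 (median 0.166) FPKM elsewhere. NTS, which encodes the peptide neurotensin, was at 845, 961 and 998 FPKM and had the highest level elsewhere of the 15, at 64.7, 74.5 and 78.4 FPKM in CD31+CD34+ cells, 38.3, 35.6 and 35 in H1 and 17.2, 15.5 and 20.3 in CD43+ cells. Both peptide genes were far above every other library, 99.3-fold for GRP and 12.9-fold for NTS relative to the mean of CD31+CD34+ cells.

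MIXL1, a homeobox factor of the streak, reached 48.1, 83.4 and 82.3 FPKM in the APLNR+ libraries against 0.0127 to 1.28 (median 0.209) in the other 9. GSC, the homeobox factor that marks the organizer, reached 23.3, 20.1 and 18.9 FPKM and was listed at 0 in all 3 CD43+ libraries, with a highest value elsewhere of 0.316 FPKM. Replicate 1 of APLNR+ was the lowest for MIXL1 and the highest for GSC, and neither gene overlapped any other library. The limma differences from CD31+CD34+ cells were 5.07 ± 0.20 (SE, adjusted p = 8.42e-10) for MIXL1 and 4.27 ± 0.11 (SE, adjusted p = 2.78e-11) for GSC.

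FST, which encodes the activin-binding protein follistatin, stood at 65.6, 68.1 and 68 FPKM against 0.0520 to 3.79 (median 2.43). DKK1, which encodes a Wnt antagonist that binds LRP5 and LRP6, stood at 63.5, 66.1 and 66.5 FPKM against 0.0684 to 3.94 (median 2.06). WNT5A, a Wnt ligand of the non-canonical branch, stood at 57.7, 48.3 and 47.3 FPKM against 0.389 to 3.12 (median 1.23). The APLNR+ libraries of these genes lay within a narrow band and far above the nearest population, at 21.3-, 18.1- and 17.7-fold of the CD31+CD34+ mean. CYP26A1, the enzyme that breaks down retinoic acid, stood at 125, 134 and 131 FPKM against 9.85, 10.9 and 10.8 in CD31+CD34+ cells and at most 1.07 in the other 6 libraries.

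The other genes of the 15 encode proteins of varied kinds. MFAP4, a protein of elastic microfibrils, was at 61.2, 69.5 and 63.1 FPKM against a highest value elsewhere of 1.26. CNKSR3, a signalling scaffold, was at 60.2, 75.6 and 71.5 FPKM against 2.06, and LZTS1, a leucine zipper protein, at 55.6, 55.4 and 50.3 against 2.05. ATP12A, the catalytic chain of a proton-potassium pump, was at 32.1, 36.4 and 35.3 FPKM against 1.02, and C1orf61 at 75.5, 86.5 and 81 against 6.16. For all 15 genes the adjusted p against each other population was at most 8.42e-10 by limma.

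**Figure D3:**
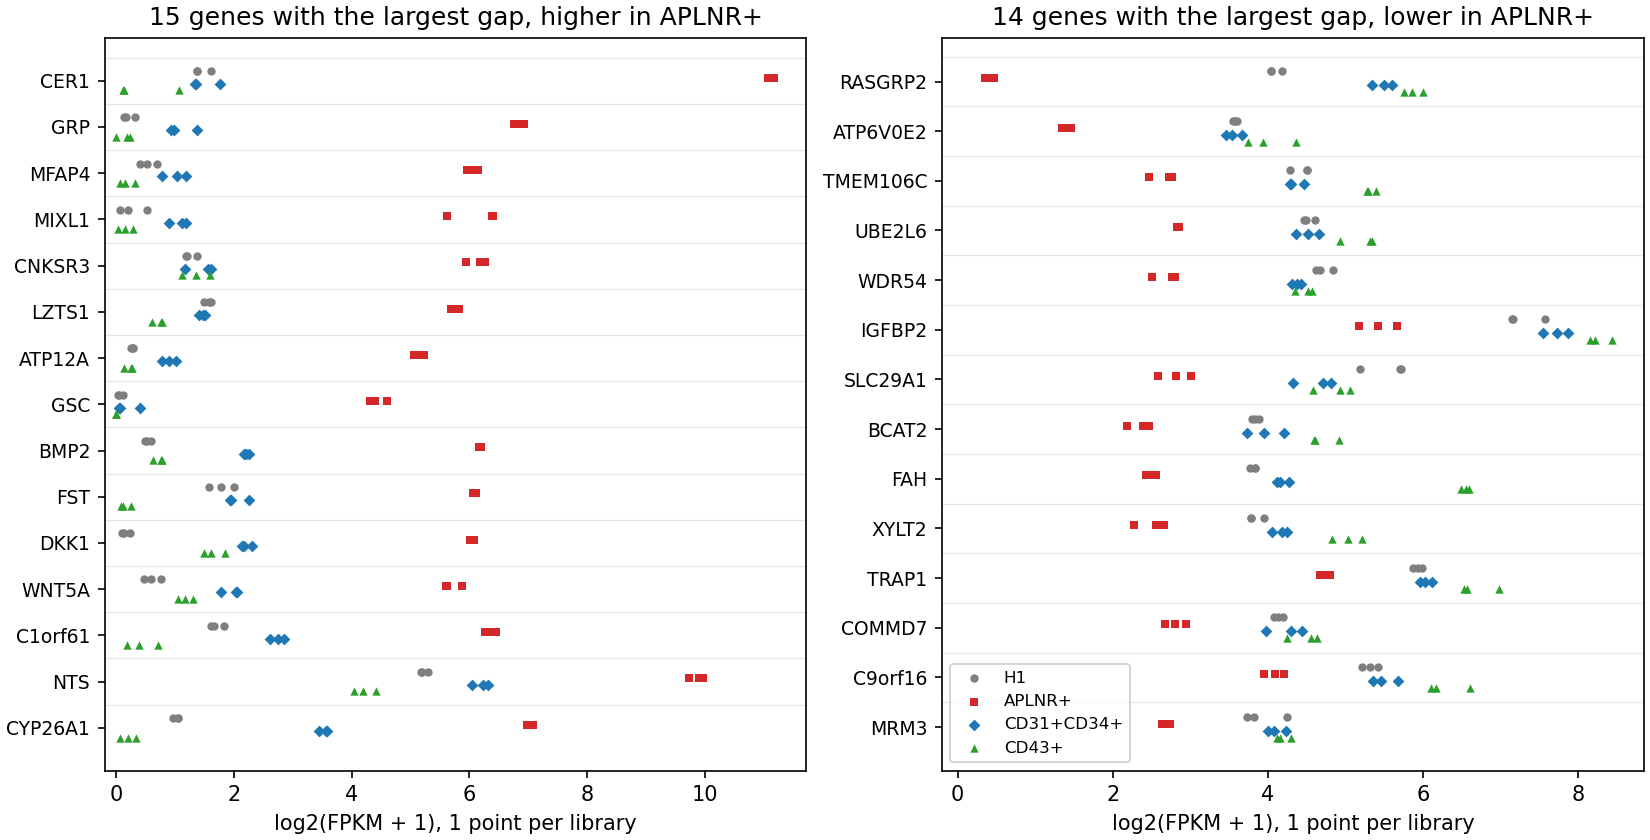
Levels in log2(FPKM + 1) of the protein-coding genes with the widest gap, 15 higher and 14 lower, 1 point per library (H1 grey circles, APLNR+ red squares, CD31+CD34+ blue diamonds, CD43+ green triangles). The APLNR+ points stand alone on the right in the first panel and alone on the left in the second, where the distance is shorter for all genes but RASGRP2.

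Stretches of promoter are shown for 3 of the leading genes, because genes that stand out together in 1 population invite a look at their start sites. They cover bases 250 to 51 before the start site in the RefSeq table of GRCh38.p14, with matches to 4 short motifs in capitals, each searched on both strands. The motif of the Wnt effectors TCF and LEF was searched as CTTTGA. That of T-box factors was searched as AGGTGT. For FOXH1, the Nodal effector, the letters were ATCCACA. For GATA factors they were AGATAA. The CER1 stretch, chr9:14722784-14722983 on the minus strand, holds none of these strings. The MIXL1 stretch, chr1:226223414-226223613 on the plus strand, holds a TCF/LEF string and a FOXH1 string read on the opposite strand. The MESP2 stretch, chr15:89776082-89776281 on the plus strand, holds 2 T-box strings on the opposite strand and a FOXH1 string, and the last 3 bases of the FOXH1 string are the opening 3 of a T-box string.
CER1: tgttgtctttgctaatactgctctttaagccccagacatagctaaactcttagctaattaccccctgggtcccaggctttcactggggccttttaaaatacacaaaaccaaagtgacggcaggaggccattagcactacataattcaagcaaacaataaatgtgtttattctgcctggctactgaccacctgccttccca
MIXL1: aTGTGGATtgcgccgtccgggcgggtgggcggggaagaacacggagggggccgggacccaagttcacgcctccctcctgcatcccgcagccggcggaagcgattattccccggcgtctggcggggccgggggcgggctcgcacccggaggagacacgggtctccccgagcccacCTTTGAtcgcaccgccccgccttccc
MESP2: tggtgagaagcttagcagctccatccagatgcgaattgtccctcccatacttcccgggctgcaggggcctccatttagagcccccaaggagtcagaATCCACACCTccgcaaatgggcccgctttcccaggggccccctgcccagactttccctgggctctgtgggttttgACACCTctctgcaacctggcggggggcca

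The share of promoters with each string was counted over all genes as a description. A RefSeq promoter was matched for 1009 of the 1457 higher genes, 1322 of the 1634 lower genes and 10902 of the 14840 tested. The TCF/LEF string stood in 6.64% of the stretches of higher genes, 5.22% of lower genes and 6.53% of all tested. The T-box string stood in 6.64%, 5.82% and 6.65%, and the GATA string in 4.76%, 3.48% and 4.2%. The FOXH1 string was rare, at 1.68%, 1.06% and 0.991%. Among the 171 matched genes with a gap of at least 2-fold, the shares were 7.6% for TCF/LEF, 7.02% for T-box, 1.75% for FOXH1 and 8.19% for GATA. A matching string is not a bound site, and no binding was measured.

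Transcription factors of the primitive streak were frequent among the higher genes. Of 20 listed factors 18 were tested, 10 were higher (55.6%, against 9.82% of all genes) and none lower (against 11%). Of the 18, 9 were called higher than each other population by limma, against 3.01% of all genes. The median difference from the mean of the others was 1.98 on the log2 scale against -0.03 over all genes. EOMES, a T-box factor of streak and endoderm, stood at 51.5, 58.7 and 59.1 FPKM against 4.06, 4.18 and 4.17 in CD31+CD34+ cells and at most 0.0793 elsewhere. MESP2, the neighbour and relative of MESP1, stood at 19.8, 19.4 and 18.7 FPKM against 0.240 to 1.1 (median 0.468). TBXT, the brachyury gene listed under its older symbol T, was lower in level, with 5.23, 4.55 and 3.53 FPKM in APLNR+ cells and 1.32, 1.21 and 0.650 in CD31+CD34+ cells. TBX6, another T-box factor, was at 1.7, 2.21 and 1.72 FPKM and at most 0.480 elsewhere. GSC and TBX6 were under 1 FPKM in all other libraries and so passed the filter only through APLNR+ cells.

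Several streak genes reached their highest level in another population. SP5, a direct target of Wnt signalling, averaged 9.6 ± 0.703 FPKM in APLNR+ cells and 17.7 ± 0.685 in CD31+CD34+ cells (SD, n = 3). EVX1, a homeobox factor of the posterior streak, averaged 3.23 ± 0.434 and 4.69 ± 0.0838 FPKM. FOXH1, the partner of SMAD2 in Nodal signalling, averaged 15 ± 0.878 FPKM in H1 and 8.82 ± 1.37 in APLNR+ cells. OTX2, an anterior homeobox factor already active in stem cells, was among the higher genes, at 25.8, 35.9 and 35.4 FPKM against 11.6, 14.4 and 12.8 in H1.

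Factors of lateral plate and heart were also frequent among the higher genes, with smaller gaps toward CD31+CD34+ cells. Of 29 listed, 19 were tested, 10 were higher (52.6%, against 9.82% of all genes) and none lower (against 11%). Called higher than each other population were 4, against 3.01% of all genes, and the median difference was 0.85. Of the 10, 1 passed the filter only through APLNR+ cells. GATA6, a zinc finger factor of heart and endoderm, stood at 45.2, 39.1 and 41.6 FPKM against 18.7, 15.3 and 14.8 in CD31+CD34+ cells and passed the test against each population. HAND1, a factor of extraembryonic and cardiac mesoderm, stood at 36.6, 48.9 and 49.1 against 18.6, 24.8 and 24.5 FPKM, and its limma difference of 0.96 ± 0.15 (SE, adjusted p = 8.58e-05) did not reach 2-fold. IRX3 and FOXF1 also passed the test against each population, at 11.6, 10.5 and 11.3 and 4.07, 4.08 and 4.29 FPKM in APLNR+ cells. NKX2-5, a cardiac homeobox factor, was not a member, with 2.77 ± 0.164 FPKM in APLNR+ and 21.7 ± 1.32 in CD31+CD34+ cells.

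Among 14 surface proteins used for mesoderm, all tested, 6 were higher (42.9%, against 9.82% of all genes) and 1 was lower (7.14%, against 11%). ROR2, a receptor for WNT5A, was at 35.8, 38.5 and 36.5 FPKM against 0.780 to 4.82 (median 1.47). PDGFRA, the PDGF receptor of paraxial and cardiac mesoderm, was at 18.3, 19.7 and 18.4 FPKM against 3.89, 4.26 and 4.59 in CD31+CD34+ cells. NCAM1, an adhesion molecule, was at 23.1, 28.7 and 27.6 against 7.46, 9.43 and 7.44, and EPHA4, a receptor for ephrins, at 44.9, 51.4 and 46.7 against 18.1, 16.1 and 15.1. These 4 genes, CDH2 and EPHB3 passed the test against each population, EPHB3 not under quantile normalization or with replicates 2 and 3 alone (log2 differences of 0.98 and 0.98 from CD31+CD34+ cells). KDR, the VEGF receptor of vascular mesoderm, was higher in CD31+CD34+ cells (277 ± 57.7 FPKM) than in APLNR+ cells (57.3 ± 9.32 FPKM), and SIRPA was the lower gene, at 0.217, 0.266 and 0.244 FPKM. SIRPA was a trace in H1 too, at 0.416, 0.395 and 0.351 FPKM. Its limma difference from H1 was -0.16 ± 0.11 (SE, adjusted p = 0.248).

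**Figure D4:**
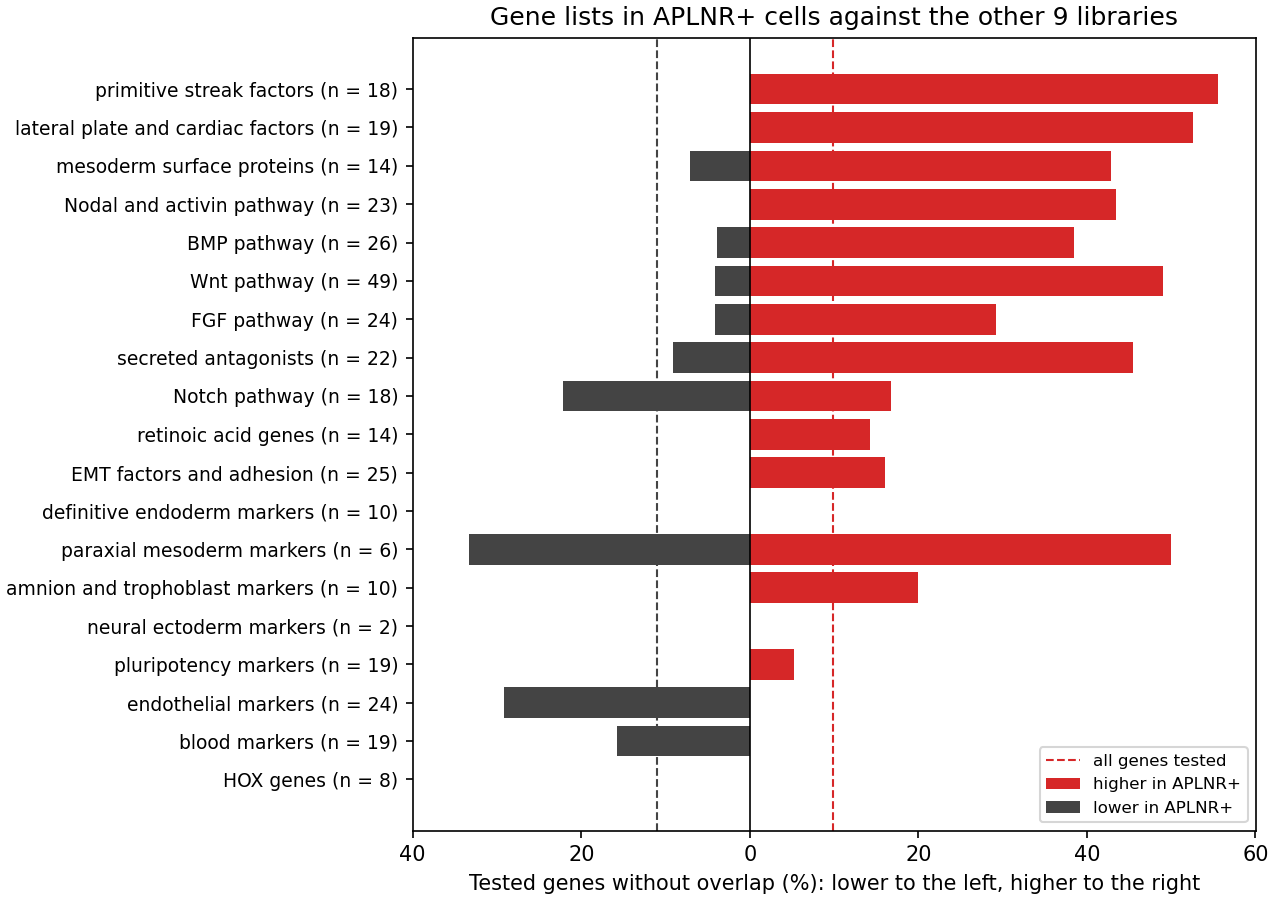
Percentage of the tested genes of each list that did not overlap, higher in APLNR+ cells to the right and lower to the left, with the number tested beside the name and dashed lines at the shares over all genes (9.82% and 11%). Streak, lateral plate, Wnt and antagonist lists reach far to the right, and endothelial and blood markers extend only to the left. The right bars include genes that passed the filter only through APLNR+ cells and so had to be higher. These were 2 streak, 3 Wnt, 2 antagonist and 1 each of the lateral plate, BMP, FGF, EMT and paraxial genes.

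In the Nodal and activin pathway 10 of 23 tested genes were higher (43.5%, against 9.82% of all genes) and none lower (against 11%). Of the 23, 7 were called higher than each population, against 3.01% of all genes, and the median difference was 1.09. The ligand gene NODAL stood at 6.77, 6.54 and 5.97 FPKM against 3.62, 2.94 and 2.39 in H1 and at most 0.540 elsewhere. Its inhibitors LEFTY2 and LEFTY1 stood at 8.96, 9.26 and 8.46 and 16, 15.3 and 14.4 FPKM, above H1 at 1.62, 1.64 and 1.56 and 6.28, 5.03 and 5.53. ACVR2A, a type 2 receptor of activin and Nodal, was at 10.7, 12.6 and 13 FPKM against 5.24 at most elsewhere. SMAD2 and SMAD3, which carry the signal to the nucleus, were higher without reaching 2-fold, with means of 57.7 ± 5.49 and 5.45 ± 1.07 FPKM against 46.2 ± 1.56 and 2.83 ± 1.08 in the nearest population. The coreceptor TDGF1 was not a member, at 180.0 ± 3.89 FPKM in APLNR+ cells and 234 ± 15.7 in H1.

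In the BMP pathway 10 of 26 tested genes were higher (38.5%, against 9.82% of all genes) and BMP6 was lower (3.85%, against 11%). Of the 26, 5 were called higher than each population, against 3.01% of all genes, and the median was 0.95. Beside BMP2, the ligand BMP4 stood at 94.3, 96.8 and 89.8 FPKM against 27.7, 28.4 and 26.8 in CD31+CD34+ cells and at most 2.88 elsewhere. The receptors BMPR2 and ACVR1 averaged 12.2 ± 1.33 and 5.59 ± 0.263 FPKM against 7.81 ± 0.553 and 4.17 ± 0.776 in CD31+CD34+ cells. Of the inhibitors, NOG was at 8.24, 6.25 and 7.04 FPKM, and BAMBI, a decoy receptor, averaged 126 ± 12.7 against 83.5 ± 10.9 in CD31+CD34+ cells. The target genes parted: ID4 was a member, at 15.6, 14.1 and 16.3 FPKM, whereas ID1, ID2 and ID3 averaged more in CD31+CD34+ cells (543 ± 51.5, 149 ± 11.5 and 135 ± 12.7 FPKM) than in APLNR+ cells (257 ± 30.7, 117 ± 11 and 53.2 ± 6.7 FPKM).

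The Wnt pathway, the longest list, had 24 of 49 tested genes higher (49%, against 9.82% of all genes) and 2 lower (4.08%, against 11%). It had 11 called higher than each population, against 3.01% of all genes, and a median of 0.88. Of the 24, 3 were under 1 FPKM in all other libraries and so had to be higher. Among the ligands, WNT4 stood at 8.99, 9.43 and 7.06 FPKM against a highest value elsewhere of 0.104, WNT8A averaged 1.63 ± 0.192 FPKM, and WNT3 averaged 3.87 ± 0.240 against 1.96 ± 0.298 in CD31+CD34+ cells. WNT5B and WNT11 were highest later, with 52.4 ± 5.48 FPKM in CD43+ and 21.6 ± 0.815 FPKM in CD31+CD34+ cells against 13 ± 0.322 and 0.517 ± 0.108 in APLNR+ cells. Of the Frizzled receptors, FZD8 was called, at 18.2, 16.5 and 17.9 FPKM against 3.04 at most elsewhere, and FZD1, FZD2, FZD4, FZD6 and FZD7 were higher by less, FZD1 not under upper-quartile scaling or quantile normalization. LGR5, a receptor for R-spondins and a Wnt target, stood at 14.7, 18.9 and 20.1 FPKM against 0.0206 to 1.56 (median 0.0980). The secreted Wnt inhibitors went both ways, with DKK1, DKK3, DKK4 and FRZB higher and SFRP1 and SFRP5 lower. SFRP1 was at 2.5, 3.53 and 3.81 FPKM in APLNR+ cells, below 9.88, 12 and 14.2 in CD43+, 12.7, 14.8 and 15.5 in CD31+CD34+ and 56.7, 78.6 and 77.1 in H1 cells.

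In the FGF pathway 7 of 24 tested genes were higher (29.2%, against 9.82% of all genes) and SPRY1 was lower (4.17%, against 11%). Of the 24, 3 were called higher than each population, against 3.01% of all genes. FGF8, the FGF of the streak, stood at 12.5, 10.8 and 9.39 FPKM against 0.0831 to 0.769 (median 0.418), and its relative FGF17 at 5.4, 5.56 and 5.17 against 1.58, 1.52 and 1.73 in CD31+CD34+ cells. FGF10 stood at 17.7, 19.3 and 18.7 FPKM against 8.18, 11 and 9.89, and its limma difference of 0.88 ± 0.11 (SE, adjusted p = 1.31e-05) did not reach 2-fold. FLRT3, a membrane protein tied to FGF signalling, stood at 4.78, 7.79 and 7.0 FPKM. The receptors FGFR1 to FGFR4 were not members. Common targets of the pathway were not either: DUSP6 averaged 29.7 ± 1.98 FPKM in APLNR+ cells and 103 ± 3.34 in H1, and ETV4 13.2 ± 0.914 and 32.7 ± 3.04.

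A list of secreted antagonists, which shares genes with the 3 pathways above, had 22 tested genes and a median of 1.38. It held 10 higher (45.5%, against 9.82% of all genes) and 2 lower genes (9.09%, against 11%). By level CER1 led it by far. BMPER, which was not a member, averaged 80.4 ± 0.972 FPKM in APLNR+ cells, more than FST or DKK1, but was higher in CD31+CD34+ cells (143 ± 7.44 FPKM). Counts for these signalling lists moved by at most 3 genes under the 3 other scalings, counted as higher genes, with Nodal 10 to 11, BMP 10 to 13, Wnt 22 to 25 and FGF 6 to 8. Over all genes the higher count ran from 1457 to 2393 in these settings. Some higher genes had passed the filter only through APLNR+ cells, 3 for Wnt, 2 for antagonists and 1 each for BMP and FGF.

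The Notch pathway was split. Of 18 tested genes 3 were higher (16.7%, against 9.82% of all genes) and 4 lower (22.2%, against 11%). The median was -0.13, or 0.11 after scaling to protein-coding genes, where JAG2 and NRARP were no longer lower. Relative to the median of all genes it was -0.096 as deposited and -0.086 after that scaling. DLL3, an inhibitory ligand of the presomitic mesoderm, stood at 38.7, 32.6 and 30.1 FPKM against 1.33 to 3.87 (median 2.01). LFNG and MFNG, which modify Notch receptors with sugars, were lower, LFNG at 2.37, 2.15 and 1.58 FPKM against 6.39, 6.34 and 5.59 in CD43+ cells and MFNG at 0.0737, 0.202 and 0.0310 against 1.45, 1.48 and 1.02 in H1. HES1, a Notch target also reached by other signals, was higher by a narrow gap, at 48.1, 54.4 and 57 FPKM against 35, 42.3 and 44.4 in CD31+CD34+ cells.

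Retinoic acid genes had 2 higher members among 14 tested, CYP26A1 and RDH10, an enzyme of retinoic acid synthesis, which stood at 7.08, 6.17 and 6.79 FPKM against 4.22, 3.69 and 3.34 in H1. Both are 14.3% of the list, against 9.82% of all genes. Of 25 tested genes of epithelial-mesenchymal transition (EMT) and adhesion 4 were higher (16%, against 9.82% of all genes) and none lower. Of the 4, 1 passed the filter only through APLNR+ cells. SNAI2 stood at 8.58, 10.1 and 11.4 FPKM against 1.76, 2.37 and 1.98 in CD31+CD34+ cells, and SNAI1 at 9.19, 11.5 and 10.1 against 2.89, 5.25 and 4.92. The limma difference of SNAI1 from CD31+CD34+ cells was 1.10 ± 0.18 (SE, adjusted p = 1.47e-04), but it did not reach 2-fold with replicates 2 and 3 alone, without CD31+CD34+ replicate 1 or under quantile normalization (0.95, 0.88 and 0.97). CDH2, the mesenchymal cadherin, stood at 41.3, 55.5 and 56 FPKM against 14.3, 26.7 and 25, and its call was likewise lost without CD31+CD34+ replicate 1 (0.94). VIM, FN1 and CDH11, further mesenchymal genes, were highest in CD31+CD34+ cells, and CDH1 and EPCAM, epithelial genes, were highest in H1.

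Marker lists of other cells that APLNR+ samples could hold differed from each other. Over all genes 9.82% were higher and 11% lower. With so few genes tested per list, the absence of members says little. Of 16 definitive endoderm markers 10 were tested and none was a member, and their summed level ran from 38.1 to 39.6 FPKM in APLNR+ cells, 17 to 17.4 in H1 and 89.3 to 94.7 in CD31+CD34+ cells. That list did not hold EOMES or GATA6, which endoderm also uses, nor CER1, GSC and MIXL1, and all of these were higher. SOX17, which endoderm and hemogenic endothelium share, averaged 17.5 ± 1.87 FPKM in APLNR+ cells, and FOXA2, which defines endoderm, was at most 0.607 FPKM there and was not tested. Of 16 neural markers only SOX3 and NES were tested, and neither was a member. Paraxial markers summed to between 57.4 and 65.4 FPKM in APLNR+ cells and to between 11.4 and 24.4 in the other libraries. They held 3 higher (DLL3, MESP2 and TBX6) and 2 lower genes (LFNG and TCF15) among 6 tested, while MSGN1, MEOX1 and PAX3 were at most 0.120, 0.0108 and 0.0686 FPKM in APLNR+ cells. Of 10 tested amnion and trophoblast markers HAND1 and TFAP2C were higher (20%), neither reaching 2-fold against CD31+CD34+ cells. The amnion and trophoblast list summed to between 58.1 and 73.3 FPKM in APLNR+ cells, 8.09 to 9.08 in H1 and 79.5 to 101 in CD31+CD34+ cells. The part of such cells in the results was not tested.

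Genes of the starting cells and of the later stages were not shared evenly. Of 19 tested pluripotency markers only VRTN was higher (5.26%, against 9.82% of all genes) and none was lower (against 11%). VRTN was at 82.4, 67.6 and 60.1 FPKM against 57.3, 40.9 and 39.2 in H1. Most of these markers lay below H1 and above both later populations. POU5F1 averaged 1002 ± 31.2 FPKM in H1, 354 ± 20.8 in APLNR+ and 84.3 ± 9.44 in CD31+CD34+ cells, while SOX2 was already at 0.269 ± 0.0638 FPKM against 43 ± 4.26 in H1. Of 24 endothelial markers none was higher and 7 were lower (29.2%, against 11% of all genes). Of the 24, 20 were called lower than the mean of the others, against 6.83% of all genes, and the median was -2.18. Several were below even the trace in H1: TIE1 was at 0.513, 0.738 and 0.589 FPKM against 1.9, 1.32 and 1.62, ERG at 0.0904, 0.164 and 0.124 against 0.965, 0.773 and 1.1 and FLT4 at 0.857, 0.913 and 0.689 against 2.38, 2.45 and 2.03. The difference from H1 was under 2-fold on the test scale for each of the 7 lower endothelial markers, and EGFL7 overlapped other libraries in each of the 3 other scalings. The endothelial markers summed to between 85.4 and 101 FPKM in APLNR+ cells, 79.1 to 83 in H1 and 2150.2 to 2412 in CD31+CD34+ cells. Of 19 tested blood markers SPN, ITGA2B and VAV1 were lower (15.8%, against 11% of all genes). Of 8 tested HOX genes, all of the HOXB cluster, none was a member, against 9.82% higher and 11% lower over all genes.

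The lower genes were less separated and of other kinds. The 15 protein-coding genes with the widest gap, among those with at least 10 FPKM in all 9 other libraries, included 14 named here, RASGRP2, ATP6V0E2, TMEM106C, UBE2L6, WDR54, IGFBP2, SLC29A1, BCAT2, FAH, XYLT2, TRAP1, COMMD7, C9orf16 and MRM3. RASGRP2, an exchange factor that activates RAP1 in platelets, was at 0.362, 0.274 and 0.383 FPKM in APLNR+ cells, 17.2, 15.4 and 15.4 in H1, 44.4, 47.5 and 39.7 in CD31+CD34+ and 53, 63 and 57 in CD43+ cells. No other lower gene had as wide a gap, and the difference from H1 was -3.67 ± 0.10 (SE, adjusted p = 3.12e-11) by limma. ATP6V0E2, a subunit of the vacuolar proton pump, was at 1.54, 1.75 and 1.67 FPKM against 10.1 to 19.6 (median 11.1). IGFBP2, a binding protein of insulin-like growth factors, was at 49.6, 41.8 and 35.1 FPKM against 190.2, 142 and 140.3 in H1, 233, 212 and 186 in CD31+CD34+ and 296, 347 and 283 in CD43+ cells. SLC29A1, a nucleoside transporter, was at 4.98, 7.07 and 6.03 FPKM against 19 to 51.5 (median 29.6). In these genes the level dipped in the APLNR+ libraries and was several-fold higher both before and after.

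Enzymes of amino acid breakdown were among the 15. BCAT2, the mitochondrial aminotransferase of branched-chain amino acids, was at 4.23, 4.54 and 3.55 FPKM against 13.8, 13.3 and 12.9 in H1. FAH, the last enzyme of tyrosine breakdown, was at 4.4, 4.6 and 4.87 FPKM against 12.6, 13.3 and 13.2 in H1 and 93.4, 95.7 and 88.8 in CD43+ cells. TRAP1, a mitochondrial chaperone, was at 25.7, 27 and 24.5 FPKM against 60.3, 62.7 and 57.7, and MRM3, a methyltransferase of mitochondrial ribosomal RNA, at 5.61, 5.19 and 5.67 against 18, 13.1 and 12.3. UBE2L6, which conjugates ISG15, was even across the APLNR+ libraries, at 6.2, 6.1 and 6.16 FPKM against 19.5 to 39.5 (median 23.3). TMEM106C, WDR54, XYLT2, COMMD7 and C9orf16 stood between 3.84 and 17.4 FPKM in APLNR+ cells. All 15 were also without overlap under each of the 3 other scalings. The call against the nearest population was lost after scaling to protein-coding genes for TRAP1 and C9orf16, whose differences from H1 became -0.94 and -0.98 on the log2 scale.

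Families of the mitochondrion and the ribosome were frequent among the lower genes, by narrow gaps. They were picked by symbol after the values were seen, and 11% of all tested genes were lower. Of 78 mitochondrial ribosomal protein genes 30 were lower and none higher, with a median of -0.39, and of 46 genes of complex I of the respiratory chain 20 were lower and 1 higher, with a median of -0.53. Of 17 ATP synthase genes 5 were lower. Of 82 cytosolic ribosomal protein genes 22 were lower, and of 47 proteasome genes 14 were lower and 2 higher. None of these genes was called lower than each population at 2-fold. MRPL24 averaged 12.7 ± 1.18 FPKM in APLNR+ cells and 23.5 ± 1.81 in H1, NDUFB10 59.8 ± 4.84 and 93.9 ± 2.09, and RPL35 1811 ± 129 and 2810.3 ± 102.

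These family counts depended on scaling. After scaling to protein-coding genes 10 mitochondrial ribosomal, 9 complex I, 8 cytosolic ribosomal and 5 proteasome genes were lower. The count over all 14840 genes also dropped under that scaling, from 1634 to 766. Relative to the median of all genes the medians were then -0.31, -0.45, -0.23 and 0.03. Under quantile normalization the median of the cytosolic ribosomal genes turned positive, at 0.09, with 7 genes lower. Ribosomal protein genes have many processed pseudogenes, so their values carry an added uncertainty of read assignment.

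**Figure D5:**
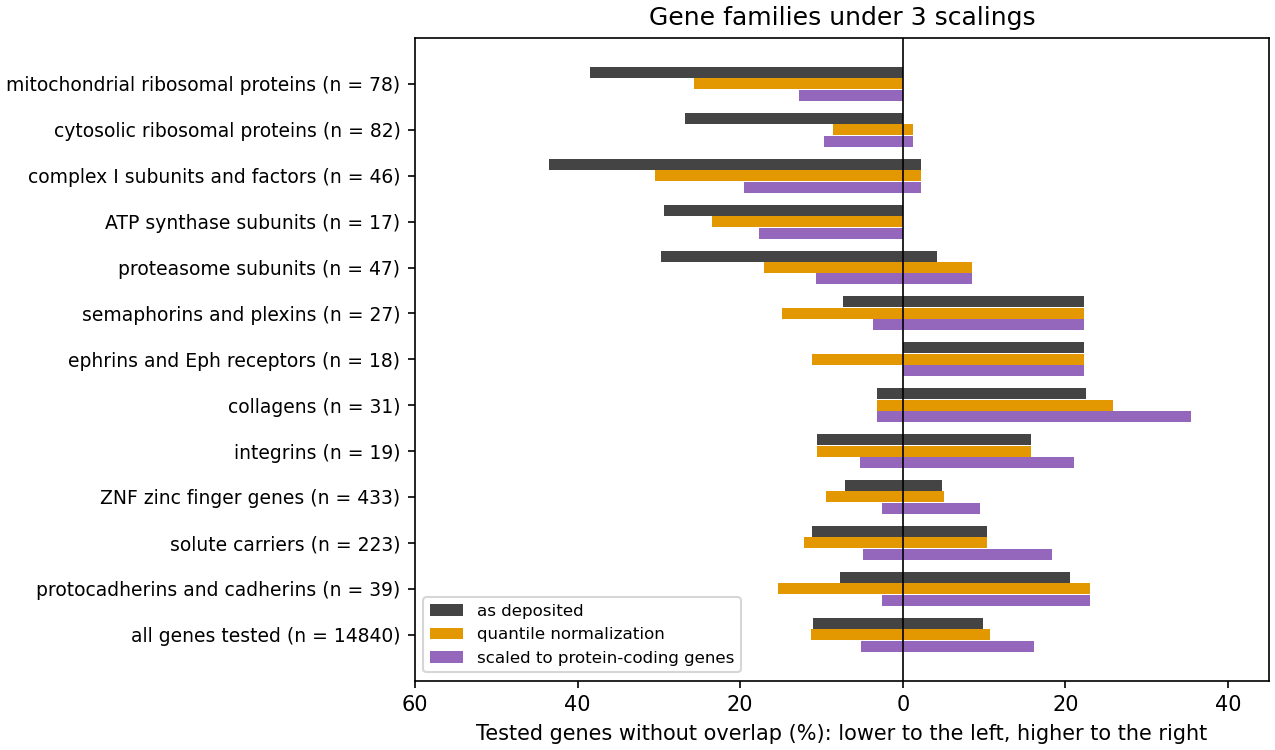
Percentage of the tested genes of each family without overlap, lower in APLNR+ cells to the left and higher to the right, with values as deposited, after quantile normalization and after scaling to the protein-coding sum. The left bars of the mitochondrial, ribosomal and proteasome families are shorter under both other scalings, and semaphorins, Eph receptors and collagens keep their right bars. Over all genes 1457 were higher and 1634 lower as deposited, 1591 and 1668 after quantile normalization and 2393 and 766 after scaling to the protein-coding sum. Right bars as deposited include genes that had to be higher, having passed the filter only through APLNR+ cells. These were 4 cadherin genes and 1 each of the collagen, ZNF and solute carrier genes.

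Length and base composition moved with membership. Among protein-coding genes, the longest GENCODE transcript had a median length of 4520.0 bases in 1235 higher, 2812.5 in 1536 lower and 3739 in 10132 other genes. Its median GC content was 44%, 54.9% and 47.9%. Higher genes were longer and poorer in GC, and lower genes shorter and richer, and the part of both features in membership was not tested.

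Noncoding genes made up a small share of the members. By GENCODE type, 52 lincRNA and 33 antisense genes were higher (3.57% and 2.26% of the higher genes, against 2.67% and 2.61% of all tested), and 31 and 27 were lower. The 5 with the widest gap above were AL353751.1, AL513329.1, AL138900.3, LINC00467 and AL139393.2. AL353751.1, which overlaps LIPA on the opposite strand, stood at 30.3, 34.7 and 29 FPKM against 0 to 1.52 (median 0.284), while LIPA averaged 9.08 ± 2.03 FPKM in APLNR+ cells and was not a member. AL513329.1 was even, at 14.8, 14.6 and 15 FPKM against 0 to 0.389 (median 0.107). LINC00467 stood at 87.9, 114 and 104 FPKM against 8.33, 9.11 and 7.34 in H1, and its neighbour TRAF5 was also higher, averaging 10.6 ± 0.678 FPKM against 5.73 ± 0.483. AL139393.2 overlaps MAP3K4 on the other strand, and both were higher, at 17.4, 14.4 and 15.4 FPKM and a mean of 24.3 ± 0.273. No source used here says that counting used the strand, so reads of such overlapping pairs cannot be told apart.

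The noncoding genes with the widest gap below had smaller differences. AL356488.2 stood at 45.4, 29.3 and 36.7 FPKM against 72.6 to 217 (median 121) and was the only one of the 5 called against each population, with a limma difference of -1.26 ± 0.22 (SE, adjusted p = 2.85e-04) from CD31+CD34+ cells. SNHG25, a host of small nucleolar RNA, stood at 24.9, 23.8 and 17.8 FPKM against 29.9 to 92.7 (median 49.8), and AL391244.1 at 8.98, 7.75 and 6.48 against 11.8 to 26.4 (median 14.2). PVT1, the neighbour of MYC, stood at 19.2, 18.6 and 19.5 FPKM against 23 to 49.9 (median 32.7), and SNHG15 at 32.4, 32 and 27.4 against 36.3 to 94.9 (median 43.5). PVT1 and SNHG15 overlapped other libraries after scaling to protein-coding genes.

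Membership near the threshold rested on single libraries. PSMA6 was the last gene inside the higher set, with a gap of 1.80e-04 between its lowest APLNR+ library at 183 FPKM and its highest other library, H1 replicate 1, followed by PHF20L1 (6.95e-04) and RTN4RL1 (0.00159). PPM1A, PPFIBP1 and USP34 were just outside, with gaps of -3.35e-05, -5.73e-05 and -1.03e-04. On the lower side TMEM219 (7.33e-05) and WDR91 (5.61e-04) were among those just inside. CST7, CETP and TUBB1, each listed at 0 in all APLNR+ libraries and in at least 1 other, were just outside with a gap of 0.

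The rule was also applied to replicates 2 and 3 alone and its members were looked up in replicate 1, the shallowest library of each population. Of 2121 genes higher by replicates 2 and 3, 1860 were also higher in replicate 1 (87.7%), against 18% of all 14840 genes. Of 2462 lower genes, 2116 were also lower (85.9%), against 22.6% of all genes. The shares over all genes include the chosen genes. It is not known whether replicates came from separate cultures, so the look-up is a description and no independent evidence. The filter on low values had read replicate 1 too, so the 213 genes under 1 FPKM elsewhere had to be kept. With the filter read from replicates 2 and 3 alone, an alternative chosen after seeing the data, 1626 of 1876 higher genes (86.7%, against 17.5% of 13581 genes) and 2023 of 2333 lower genes (86.7%, against 23.2%) were also so in replicate 1. With the filter over all libraries, choosing on the other replicates and looking in replicate 2 gave 95.6% and 92.2%, and in replicate 3 95.1% and 93.1%.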

How the data were processed

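RNA-seq of H1 cells (n = 3), APLNR+ (n = 3), CD31+CD34+ (n = 3) and CD43+ cells (n = 3) was used as the gene-level FPKM table that the authors deposited. Their processing notes name BWA, Bowtie, RSEM and build hg19, and versions and annotation were not given in the sources used here. Whole-read depth is known only relative to 1 library. A symbol on several lines kept the line with the highest mean, which left 56593 symbols, and genes with at least 1 FPKM in at least 3 libraries were tested.

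Values were taken as log2(FPKM + 1) and fitted for all 4 populations at once with limma 3.58.1 (R 4.3.3, variance trend), with Benjamini-Hochberg adjustment over all 14840 genes. Calls needed an adjusted p under 0.05 and a 2-fold difference. The scripts were tested on simulated data. Members, lists and named genes were chosen with earlier results of these data known. Named were the 3 marker genes, all list members without overlap, the 15 protein-coding genes per direction with the widest gap and at least 10 FPKM, the 5 noncoding genes per direction and genes at the threshold. A few of these genes are not reported here. Gene types and transcripts came from GENCODE 29, and promoters from RefSeq (GRCh38.p14). Alternatives were other scalings, filters, pseudocounts and thresholds, a replicate block and leaving out libraries.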

Additional observations from a re-analysis of the deposited data

How the results depend on the processing

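Counts are given as higher and then lower genes. Without overlap there were 1457 and 1634, which became 2277 higher genes without a filter, 702 higher genes at a mean of at least 5 FPKM, and 2393 and 766 after scaling to protein-coding genes. The 446 and 85 calls against each population became 186 higher at a mean of at least 5 FPKM, 52 lower after scaling to protein-coding genes, 284 lower with a pseudocount of 0.1, 1338 and 1357 with no minimum change and 100 and 6 at 4-fold. The 1428 and 1013 calls against the mean of the others became 864 higher at a mean of at least 5 FPKM, 2293 and 663 after scaling to protein-coding genes, 2290.0 and 1679 with a pseudocount of 0.1, 4918 and 5403 with no minimum change and 273 and 166 at 4-fold. The kept share in the held-out replicate was 87.7% and 85.9% for replicate 1, 95.6% and 92.2% for replicate 2, and 95.1% and 93.1% for replicate 3, and 86.7% for both directions with the filter read from replicates 2 and 3 alone.

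Leaving out 1 library at a time gave 1303 to 1763 and 1600 to 1979 genes without overlap, 306 to 452 and 76 to 97 calls against each population, and 1198 to 1474 and 921 to 1057 against the mean. No single library moved a count by over 1.5 times, but without any APLNR+ library the 213 genes under 1 FPKM elsewhere no longer passed the filter. With a pseudocount of 0.1 the list medians were 3.38 for streak factors, 2.10 for lateral plate, 2.06 for mesoderm surface proteins, 1.42 for Nodal, 1.19 for BMP, 1.22 for Wnt, 0.84 for FGF, 2.02 for antagonists, 0.52 for retinoic acid, 0.65 for EMT, -0.066 for endoderm, 1.90 for paraxial, 1.13 for amnion, 0.29 for neural, 0.59 for pluripotency, -2.74 for endothelial and -3.08 for blood genes. No named gene reversed, but the balance of higher and lower genes without overlap turned in several settings. It was 2277 to 1800 without a filter, 1724 to 1401 under upper-quartile scaling and 2393 to 766 after scaling to protein-coding genes. The balance of both kinds of calls turned with no minimum change. The median changed sign for 8 gene lists and families: Notch (0.11), proteasome (0.22), integrins (0.04) and solute carriers (0.21) after scaling to protein-coding genes, cytosolic ribosomal (0.09) and ephrin genes (-0.01) under quantile normalization, and endoderm (0.07) and cadherin genes (-0.11) with replicates 2 and 3 alone. Scaling to protein-coding genes also moved the median of all genes, from -0.03 to 0.19. Relative to that median, Notch went from -0.096 to -0.086 and proteasome from -0.024 to 0.030. Integrins went from -0.20 to -0.15 and solute carriers from 0.020 to 0.023 on the same relative scale. Solute carriers also turned under upper-quartile scaling (0.02) and with replicates 2 and 3 alone (0.0016).

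Among named genes 4851 of the recomputed values stayed on their side of the threshold, 57 newly passed it and 18 no longer did, the latter in 12 genes: C9orf16, CDH2, DPPA2, EPHB3, L1TD1, LFNG, PMEPA1, SNAI1, TRAP1, USP44, ZFP42 and ZSCAN10. Deviations of same-numbered libraries of APLNR+ and another population correlated at -0.02 to 0.43, so the numbers were not taken as pairs. With a replicate block there were 446 and 85 calls against each population and 1429 and 1015 against the mean. Low genes limit the fold changes, since counts behind the FPKM are unknown.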

Other observations

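Guidance and matrix genes were also found among the members. These families were picked by symbol after the values were seen, and the share of all genes without overlap was 9.82% higher and 11% lower. Of 27 tested semaphorins and plexins 6 were higher and 2 lower in APLNR+ cells. SEMA6D, a membrane-bound guidance cue, stood at 24.7, 31.9 and 32.7 FPKM in APLNR+ cells against 0.207 to 1.57 (median 1.05) in the other 9 libraries. SEMA3C, a secreted semaphorin of the cardiac outflow tract, stood at 17.4, 24.5 and 26.1 FPKM against 0.483 to 2.4 (median 0.770), and SEMA5A at 20.7, 33.2 and 26.7 against 0.213 to 3.48 (median 1.7). SEMA4D, which is prominent on blood cells, was lower, at 1.53, 1.46 and 1.32 FPKM against 3.49 to 7.8 (median 5.25). Of 18 tested ephrins and Eph receptors 4 were higher and none lower, or 2 lower under quantile normalization. EPHB2 stood at 15.7, 16.2 and 13.8 FPKM against 6.36, 5.97 and 6.27 in H1.

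Of 31 tested collagens 7 were higher and 1 lower. Of the 7, 1 passed the filter only through APLNR+ cells and so had to be higher. COL5A2, a chain of the fibrillar type V collagen, averaged 291 ± 22.1 FPKM in APLNR+ and 94.9 ± 4.42 in CD31+CD34+ cells (SD, n = 3). COL2A1, the cartilage collagen, was the lower gene, at 1.13, 0.843 and 0.565 FPKM against 1.81 to 46.8 (median 9.44). Of 433 tested ZNF zinc finger genes, 21 were higher and 31 lower, or 41 and 11 after scaling to protein-coding genes. Over all 14840 genes the counts moved the same way, from 1457 and 1634 to 2393 and 766.

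Some higher genes were neighbours in the genome. Of 9279 neighbouring pairs of tested protein-coding genes in GENCODE order, 167 had both genes higher and 209 had both lower. Among all tested genes 9.82% were higher and 11% lower. Those are shares of single genes, whereas a counted pair needs both genes to be members, so they are no direct yardstick. Whether neighbours shared membership beyond what the single-gene shares give was not tested. The pair with the widest gaps was MESP1 and MESP2, followed by HRASLS5 and LGALS12. NPPA and NPPB, the natriuretic peptide genes of heart muscle, were another, with NPPA at 1.75, 1.82 and 1.69 FPKM against 0 to 0.198 (median 0) and NPPB at 27.4, 28.6 and 24.2 against 0 to 2.18 (median 0.0652). NPPA passed the filter only through APLNR+ cells and so had to be higher. Other such genes among the 167 pairs were not counted. CER1 and its neighbour FREM1 were also both higher, FREM1 at 13.2, 15.7 and 16 FPKM against 0.668 to 5.62 (median 2.4).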
